A study of Mus musculus with 32 samples.

Results

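The genes H2-Ab1, H2-Aa and H2-Eb1, Cd74 and Ciita serve MHC class II antigen presentation, and the regions around them were read in the open-chromatin maps of Kupffer cells and liver endothelial cells. The members are ATAC-seq peaks whose centres lie in 3 windows of the mouse genome build mm9. The H2 window is 130 kb of chromosome 17 (34.38 to 34.51 Mb) and holds the cluster of the 3 H2 genes. The Cd74 window is 80 kb of chromosome 18 (60.93 to 61.01 Mb), and the Ciita window is 110 kb of chromosome 16 (10.45 to 10.56 Mb). The windows held 89 of the 137684 peaks called in Kupffer cells and 33 of the 91453 called in endothelial cells.

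ATAC-seq marks accessible DNA by letting a transposase insert sequencing adapters into it. The series has 32 libraries from male C57BL/6J mice on normal chow, 16 from isolated Kupffer cells (macrophages that reside in the liver sinusoids) and 16 from isolated endothelial cells. Each cell type was taken from mice lacking REV-ERB a and b in adult hepatocytes and from WT mice, at ZT10 and at ZT22 (zeitgeber time, hours after lights on), with 4 libraries in each of the 8 groups. The knockout is described for hepatocytes, so the profiled cell types are not the ones named as lacking REV-ERBs, and the way the deletion was made is not given in the sources used here. For each cell type a single list of peak positions was used, which does not separate genotypes or times. Kupffer cells can therefore be set against endothelial cells; double knockout against WT and ZT22 against ZT10 were not analysed here.

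MHC class II molecules are pairs of an alpha and a beta chain that carry peptides from engulfed proteins to the cell surface, where CD4+ T cells read them. H2-Aa and H2-Ab1 encode the alpha and beta chains of I-A, and H2-Eb1 encodes the beta chain of I-E, whose alpha chain gene H2-Ea is listed as a pseudogene in the gene table of the C57BL/6J genome. Cd74 encodes the invariant chain, which occupies the peptide groove during assembly and guides the molecule to endosomes. Ciita encodes the class II transactivator, which binds no DNA itself and is recruited to class II promoters by the factors bound at their X and Y boxes. Macrophages and sinusoidal endothelial cells of the liver are both known as antigen-presenting cells.

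The X and Y boxes are shown for the class II chain genes whose promoters were at hand, since these are the boxes to which the product of Ciita is recruited. The promoter table from RefSeq (GRCm38.p6, 250 bases before to 50 after each start) held 2 of the 5 genes, H2-Aa and H2-Eb1. Capitals mark an X1-like box (CNNGNAAC, the contact of RFX) and the nearest Y box after it (CCAAT, the contact of NF-Y, read here as its reverse complement ATTGG). H2-Eb1 holds another CCAAT, 35 bases before the start, which is not in capitals. The H2-Aa sequence is the minus strand of chr17:34287774-34288073, and that of H2-Eb1 the plus strand of chr17:34305617-34305916.
H2-Aa: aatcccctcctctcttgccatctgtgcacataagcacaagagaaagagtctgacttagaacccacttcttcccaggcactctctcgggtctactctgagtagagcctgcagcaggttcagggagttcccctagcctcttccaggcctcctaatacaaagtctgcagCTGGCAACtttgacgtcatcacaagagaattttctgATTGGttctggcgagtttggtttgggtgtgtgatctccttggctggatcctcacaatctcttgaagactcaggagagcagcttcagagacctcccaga
H2-Eb1: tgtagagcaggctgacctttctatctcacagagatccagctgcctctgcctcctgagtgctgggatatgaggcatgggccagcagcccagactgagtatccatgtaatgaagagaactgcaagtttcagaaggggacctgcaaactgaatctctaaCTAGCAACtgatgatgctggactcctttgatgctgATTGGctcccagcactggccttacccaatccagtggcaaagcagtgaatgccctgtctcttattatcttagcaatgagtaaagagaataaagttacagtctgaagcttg

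The boxes lie 84 and 48 bases before the start of H2-Aa, and 94 and 59 bases before that of H2-Eb1. Their first bases are 36 bases apart in H2-Aa and 35 in H2-Eb1. The same pair was found in 4 other class II promoters of chromosome 17, for which the stretch from X1 to Y is given beside the member genes. They were chosen for a pair within 50 bases, so a similar spacing is partly fixed by the choice. H2-DMa and H2-DMb2 held both patterns without such a pair. H2-Ob and H2-Oa encode the chains of H2-O, H2-DMb1 a chain of H2-M, the pair of molecules that govern peptide loading, and H2-Eb2 a further class II beta chain.
H2-Oa: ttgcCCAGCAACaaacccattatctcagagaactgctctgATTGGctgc
H2-DMb1: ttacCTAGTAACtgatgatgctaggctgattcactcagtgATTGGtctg
H2-Ob: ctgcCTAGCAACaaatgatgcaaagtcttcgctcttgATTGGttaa
H2-Eb2: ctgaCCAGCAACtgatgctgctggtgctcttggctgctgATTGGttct
The first bases of the boxes are 36 bases apart in H2-Oa and H2-DMb1, 35 in H2-Eb2 and 33 in H2-Ob.

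Both letter patterns are common by themselves. On either strand, CCAAT was found in 37.4% of the table's 32851 promoters and CNNGNAAC in 39.1%, and a pair with first bases at most 50 bases apart in 6.06%. The stricter X1 pattern CTAGNNAC was found in H2-Eb1 and not in H2-Aa, beside 10.4% of all promoters, and a pair with CCAAT within 50 bases in 1.43%. CNNGNAAC was chosen after these sequences were seen. H2-Aa also held the CREB core motif CGTCA on each strand, overlapping, 71 and 74 bases before the start, beside 20.8% of all promoters with at least 1 match. None of the interferon response motif, TTCNNNGAA (STAT), GAGGAA (PU.1), CACGTG (E-box) or TAGGTCA (ROR and REV-ERB) was found in these 2 promoters of 300 bases. Those patterns were held by 3.44%, 8.30%, 28.3%, 7.15% and 2.61% of all promoters, in that order. Of 20 other genes of the pathway, 16 had a promoter in the table, and 11 of the 16 held CCAAT, 3 CTAGNNAC and 0 TAGGTCA in at least 1 of their promoters. Some of these genes have several promoters, so the counts by gene are not in the same unit as the shares of all promoters. CNNGNAAC and CCAAT within 50 bases, on either strand, were found in 5 of the 16, the 4 shown above and Rfx5, which encodes an RFX subunit. These promoters are on another build than the peaks, so no peak was placed on them.

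Across the 3 windows, Kupffer-only sites were the most numerous kind and endothelial-only sites the fewest. Peaks of the 2 lists that had 1 bp or more in common were counted as shared, and all others as restricted to their list. Of the 89 Kupffer peaks, 65 or 73.0% were Kupffer-only (95% exact binomial interval 62.6% to 81.9%), against 60.9% of the whole Kupffer list. Of the 33 endothelial peaks, 9 or 27.3% were endothelial-only (13.3% to 45.5%), against 41.7% of the whole endothelial list. Counted as 98 distinct sites, 66.3% were Kupffer-only, 9.18% endothelial-only and 24.5% shared, where the genome-wide 174603 sites gave 48.0%, 21.8% and 30.1%. These intervals are for counting error alone, as if peaks were independent, and hold no variation among animals. With 1 list per cell type there are no replicates and no test. Absence from a list means that no peak was called, which does not show closed chromatin.

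The windows differed among themselves. The H2 window held 42 Kupffer and 14 endothelial peaks, a ratio of 3.0, and the Ciita window held 30 and 8, a ratio of 3.75. The Cd74 window held 17 Kupffer and 11 endothelial peaks, a ratio of 1.55, close to the 1.51 of the whole lists. Covered length gave the same order, with 6247 bp of Kupffer and 1514 bp of endothelial peaks at Ciita (ratio 4.13), 8756 and 3104 bp at H2 (2.82) and 3288 and 2360 bp at Cd74 (1.39), beside 1.48 over the whole lists.

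**Figure D1:**
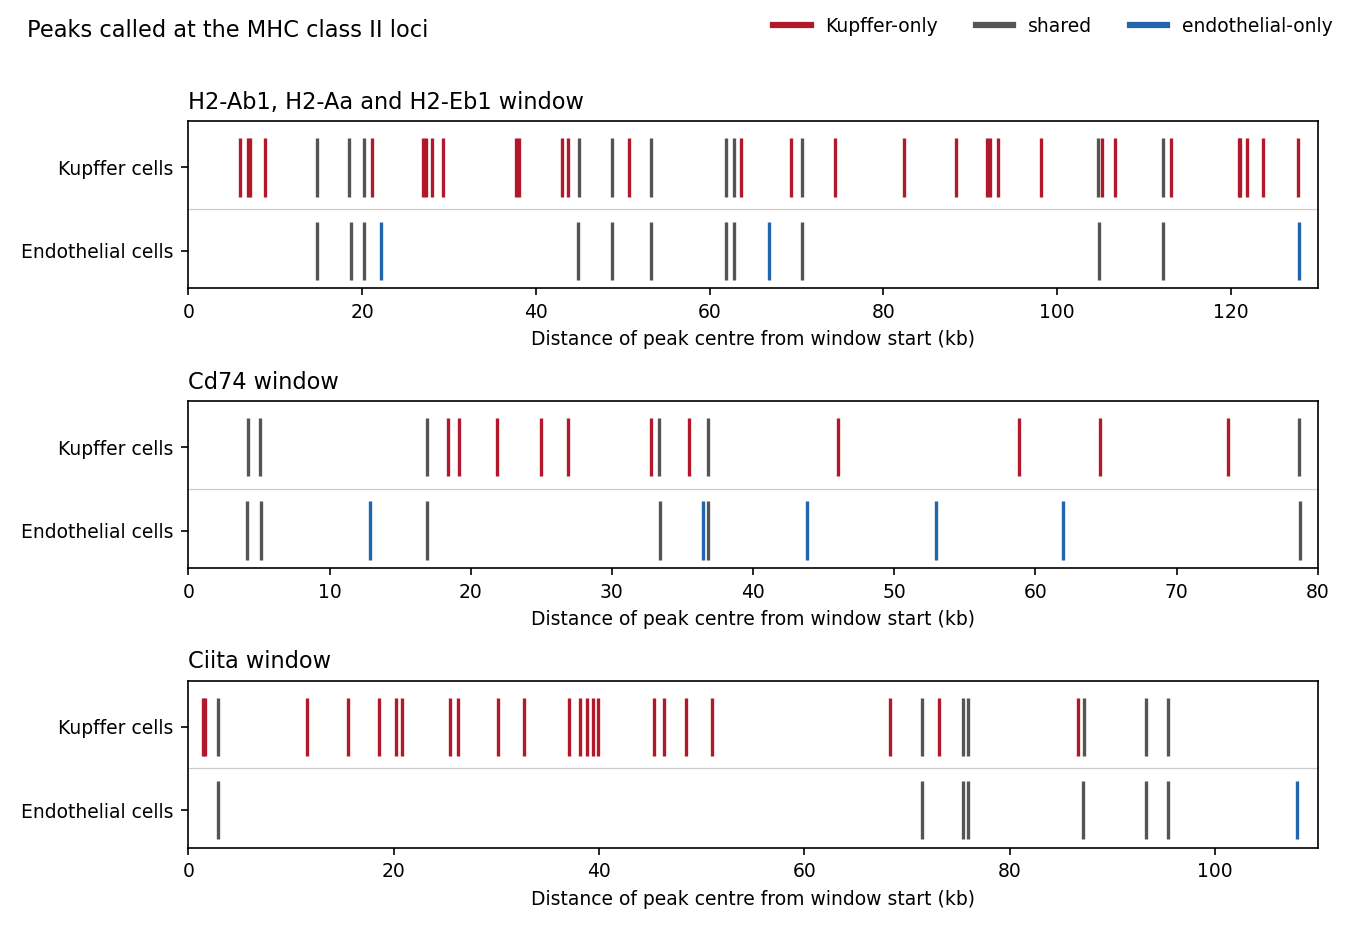
Position of each peak centre in kb from the start of its window, with Kupffer cells above endothelial cells. Colours give Kupffer-only, shared and endothelial-only peaks. The Kupffer row of the Ciita window holds 19 Kupffer-only sites in a stretch with no endothelial peak, and single Kupffer-only and endothelial-only peaks take turns from 43.7 to 62.0 kb of the Cd74 window.

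The H2 window surrounds the genes of the I-A chains and the I-E beta chain, which follow each other in the gene order H2-Ob, Gm20506, H2-Ab1, H2-Aa, H2-Eb1, H2-Eb2, H2-Ea and Btnl2. That order is from the RefSeq table on GRCm38.p6. With no annotation of mm9 at hand, no peak was assigned to a gene, and the 3 H2 genes were not separated. The window may also hold other genes of that order, so its peaks are not those of the 3 genes alone. Of its 42 Kupffer peaks 31 were Kupffer-only (73.8%, 58.0% to 86.1%), and of its 14 endothelial peaks 3 were endothelial-only (21.4%, 4.66% to 50.8%). Both intervals include the share of the whole list. The 11 shared sites were thus most of the endothelial peaks here (78.6%) and a minority of the Kupffer peaks (26.2%). The same holds for the whole lists, with 58.3% of endothelial and 39.1% of Kupffer peaks shared.

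Shared and Kupffer-only sites were interleaved along the H2 window. Its first 4 sites, 5.85 to 8.88 kb from the start, were Kupffer-only, and 3 shared sites followed between positions 34394673 and 34400393. The widest endothelial peak of the window, 379 bp at 34398501 to 34398879, was the second of these, and its Kupffer partner of 219 bp was centred 147 bp further left. The third, at 34400055 to 34400393 in endothelial cells, was 339 bp wide and its Kupffer partner 198 bp.

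The longest Kupffer-only run of the H2 window had 8 sites over 16.8 kb, from 34406954 to 34423785. It held the widest Kupffer peak of all 3 windows, 433 bp at 34417829 to 34418261. Runs of at least 8 Kupffer-only sites made up 3.88% of the 34902 such runs on chromosomes 1 to 19 and X, where the median run had 2 sites. As the longest of its window was picked, a low percentage is partly fixed by that choice. The run was followed by shared sites at 34424735 to 34425027 and 34428689 to 34428905.

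Between 53.1 and 63.0 kb from the start came 3 further shared sites. They flanked the longest stretch without a peak of either list, 8.46 kb between 34433342 and 34441797. Their Kupffer and endothelial widths were 250 and 208 bp, 218 and 244 bp, and 203 and 283 bp, so neither list had the wider peak throughout.

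The right part of the H2 window was sparse in the endothelial list. No endothelial peak lay in the 34.0 kb between 34450680 and 34484715, which held a run of 7 Kupffer-only sites over 24.0 kb. Another 6 Kupffer-only sites lay between 34492991 and 34507788. The last of them ended 8 bp before the endothelial-only peak at 34507797 to 34507947, the nearest restricted pair of the 3 windows, which counts as shared when peaks within 500 bp do. The widest shared Kupffer peak of this window, 267 bp, was at 34484624 to 34484890.

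The 3 endothelial-only peaks of the H2 window had 172, 167 and 151 bp, beside a median of 171 bp over all endothelial-only peaks, and 151 bp is the commonest width in either list. Shared peaks in this window had a median width of 219 bp in Kupffer cells and 217 bp in endothelial cells, and Kupffer-only peaks one of 191 bp, beside 207, 210 and 194 bp over the same classes of the whole lists.

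The Ciita window held the longest Kupffer-only run of the 3 windows. Of its 30 Kupffer peaks 23 were Kupffer-only (76.7%, 57.7% to 90.1%), and of its 8 endothelial peaks 1 was endothelial-only (12.5%, 0.316% to 52.7%). Again both intervals include the share of the whole list. In the gene table Ciita follows Nubp1, Tvp23a and the non-coding Gm41420 and is followed by LOC115488669, Dexi and Clec16a, so the window may hold parts of other genes.

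Starting 11.4 kb into the Ciita window, 19 consecutive sites over 57.0 kb, from 10461404 to 10518404, were Kupffer-only. Of the 34902 Kupffer-only runs on chromosomes 1 to 19 and X, 85 or 0.244% had at least as many sites. It was named as the longest run of its window, so a low percentage is partly fixed by that choice. Longest runs of other regions were not compared. The endothelial list had no peak for 68.4 kb around this run, between 10453003 and 10521376. Stretches without endothelial peaks are common in the genome. Of 23967 non-overlapping tiles of 110 kb on chromosomes 1 to 19 and X, not matched for genes, 9278 held no endothelial peak. Within the run, 7 Kupffer-only sites fell between 30 and 40 kb from the window start, the most in any 10 kb bin of the 3 windows. The widest Kupffer peak of the Ciita window, 364 bp, lay in the run at 10482486 to 10482849. The run also spans the longest stretch of the window free of both kinds, 17.1 kb from 10501150 to 10518229, so its sites are concentrated in its left part.

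The shared sites of the Ciita window lay outside the run. A first shared site sat 2.84 kb from the window start, where the endothelial peak at 10452678 to 10453002 was 325 bp wide, the widest endothelial peak of the window, and the Kupffer peak 246 bp. The other 6 lay between 10521377 and 10545529. They overlapped closely, with centres 1 to 36 bp apart over the window's 7 shared pairs and a median of 9 bp, beside 24.5 bp over 11 pairs at H2, 27 bp over 6 at Cd74 and 25 bp over the whole lists. The pair at 10525344 to 10525495 had 151 bp in each list, with centres 1 bp apart. The endothelial-only peak, at 10557861 to 10558011, was also 151 bp wide and lay 7.74 kb from the nearest Kupffer peak. The restricted peak nearest to the other list, the Kupffer-only peak at 10536570 to 10536763, lay 341 bp from an endothelial peak.

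Most Kupffer-only peaks at Ciita lay far from endothelial ones. The median gap of the 23 to the nearest endothelial peak was 22.4 kb, and 17 of 23 lay more than 10 kb away. All 17 lay in the 68.4 kb stretch without an endothelial peak described above, so these distances restate it. On chromosomes 1 to 19 and X, 31.8% of Kupffer-only peaks lay beyond 10 kb, and the median gap was 4.80 kb. At H2 the median gap was 5.82 kb with 5 of 31 beyond 10 kb, and at Cd74 it was 2.45 kb with 0 of 11. The longest stretch between endothelial peaks of the Cd74 window was 16.6 kb, so no peak inside it could lie more than 10 kb from both ends. The count of 0 of 11 was thus fixed by the spacing of the endothelial peaks.

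The Cd74 window was the most balanced. Of its 17 Kupffer peaks 11 were Kupffer-only (64.7%, 38.3% to 85.8%) and of its 11 endothelial peaks 5 were endothelial-only (45.5%, 16.7% to 76.6%), both near the shares of the whole lists, 60.9% and 41.7%. In the gene table Cd74 lies between Gm8731 and the microRNA gene Mir5107, with Rps14 and Tcof1 beyond them. This window too may hold parts of other genes, so the balance is that of the window and not of Cd74 alone.

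In the Cd74 window 6 Kupffer-only sites formed the longest run, 14.5 kb from 60948350 to 60962865. A shared site followed at 60963271 to 60963574, with a peak of 180 bp in Kupffer and 289 bp in endothelial cells. The next 3 sites were a Kupffer-only peak at 60965370 to 60965591, an endothelial-only peak at 60966315 to 60966537 and a shared site at 60966727 to 60966906. That endothelial-only peak lay 189 bp from its nearest Kupffer peak.

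From 43.7 to 62.0 kb of the Cd74 window endothelial-only and Kupffer-only peaks took turns, with single endothelial-only peaks starting at 60973726, 60982858 and 60991864. The widest peaks of the window were the shared pair nearest its start, 338 bp in Kupffer and 309 bp in endothelial cells. Its widest Kupffer-only peak had 234 bp and its widest endothelial-only peak 235 bp. The longest stretch without any peak was 8.91 kb, from 60994620 to 61003524.

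**Figure D2:**
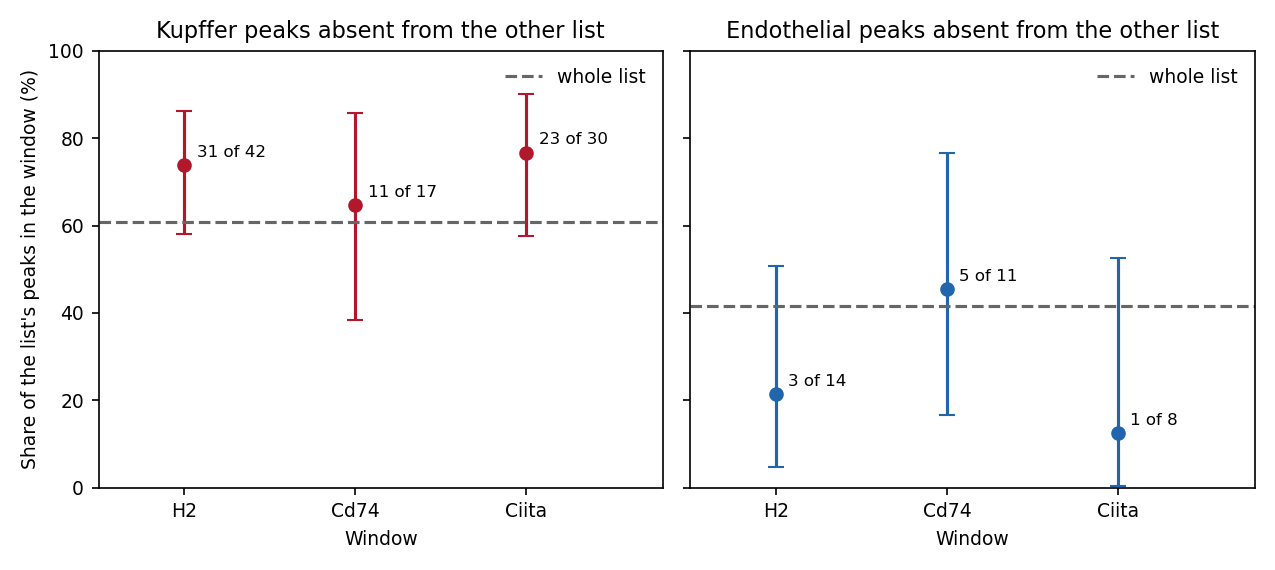
Share of the peaks of each list, in percent, that had no overlapping peak in the other list, with Kupffer peaks on the left and endothelial peaks on the right. Bars are 95% exact binomial intervals for counting error, and dashed lines are the shares of the whole lists (60.9% and 41.7%). Each interval spans its dashed line.

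Peak counts were set beside those of non-overlapping tiles of the same length over chromosomes 1 to 19 and X. The 31 Kupffer-only peaks of the H2 window were reached by 37 of 20280 tiles of 130 kb (0.182%), where the median tile held 1. Of these tiles 8743 held no Kupffer-only peak, and tiles were not matched to the windows for genes. The 23 of the Ciita window were reached by 164 of 23967 tiles of 110 kb (0.684%). The 11 of the Cd74 window were reached by 1784 of 32957 tiles of 80 kb (5.41%).

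Endothelial peaks were also more frequent than in the median tile in each window. As many as the 14 at H2 were found in 9.46% of tiles, the 8 at Ciita in 18.95% and the 11 at Cd74 in 6.43%. The balance between the kinds was less uncommon than the number of Kupffer-only peaks. Among tiles with at least 10 sites, a Kupffer-only share of sites as high as the 68.9% at H2 was found in 16.6%, as high as the 74.2% at Ciita in 11.6%, and as high as the 50.0% at Cd74 in 51.4%. The median of these tiles was 50.0% for each tile length. Tiles are positions in the genome and not replicates, and these percentages are a description.

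**Figure D3:**
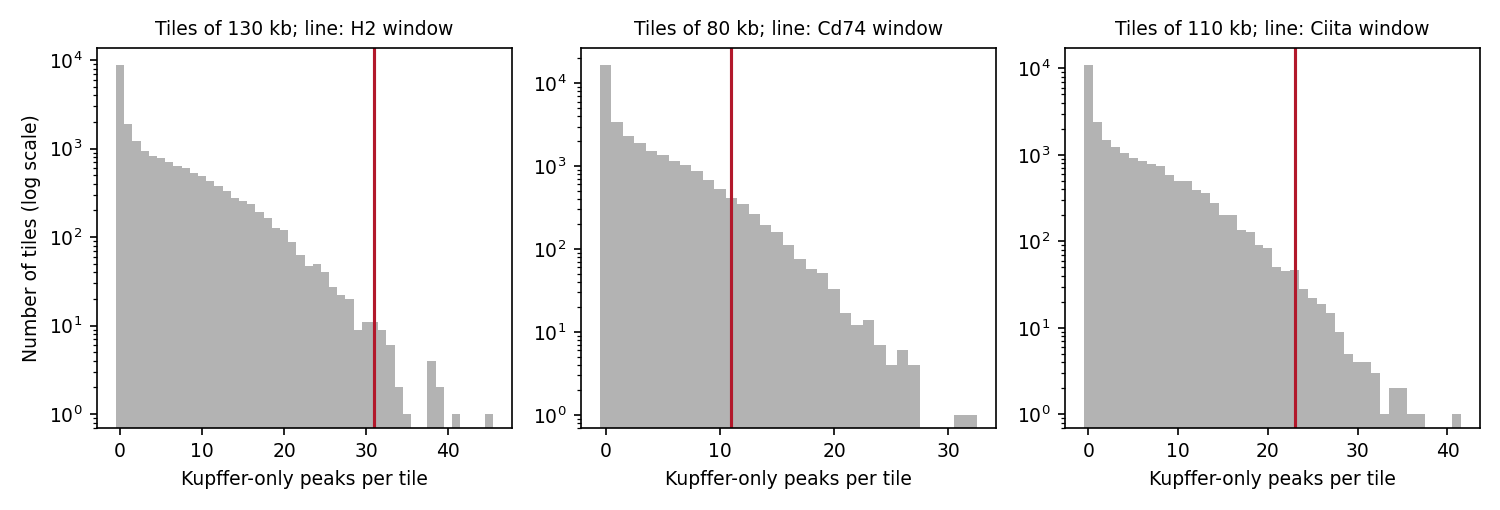
Number of non-overlapping tiles (log scale) by their count of Kupffer-only peaks, for tiles of 130, 80 and 110 kb. The red line marks the window: 31 Kupffer-only peaks at H2, 11 at Cd74 and 23 at Ciita.

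The flanks of equal length show how far each pattern reached. At Ciita the ratio of Kupffer to endothelial peaks was 3.75 in the window, 1.64 in the 110 kb before it (18 and 11 peaks) and 0.75 in the 110 kb after it (6 and 8 peaks). Of the 31 sites in the Ciita window 74.2% were Kupffer-only, against 54.2% of the 24 before it and 27.3% of the 11 after it. At H2 the ratio of 3.0 in the window stood beside 1.73 before it (38 and 22 peaks) and 3.50 after it (21 and 6 peaks), so the right flank had as large a ratio on fewer peaks. Of the 45 sites in the H2 window 68.9% were Kupffer-only, against 50.0% of the 42 before it and 71.4% of the 21 after it. At Cd74 the ratio was 1.55 in the window, 0.90 before it (26 and 29 peaks) and 1.88 after it (15 and 8 peaks). Of the 22 sites in the Cd74 window 50.0% were Kupffer-only, against 25.6% of the 39 before it and 60.0% of the 20 after it.

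**Figure D4:**
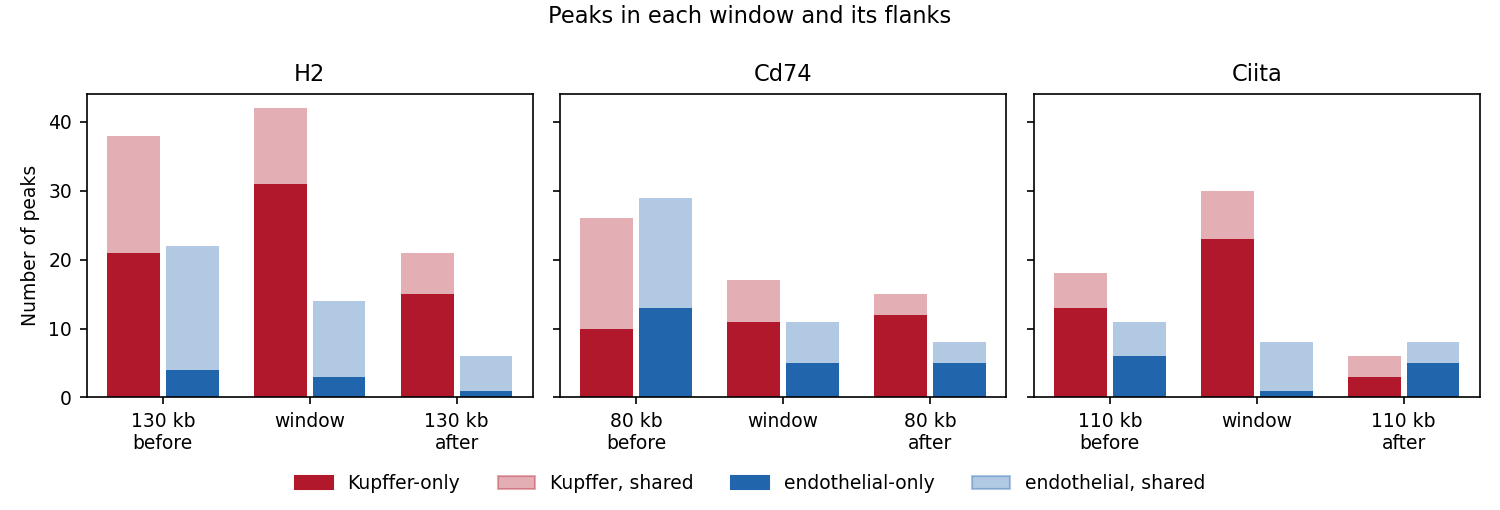
Number of peaks in each window and in flanks of the same length before and after it, Kupffer bars left of endothelial bars. Dark parts are peaks of that list alone and pale parts shared peaks. At Ciita 23 of 30 Kupffer peaks were Kupffer-only in the window, 13 of 18 before it and 3 of 6 after it, beside 60.9% of the whole Kupffer list.

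Peak width differed little from the lists as a whole. Kupffer peaks averaged 208 bp at H2, 193 bp at Cd74 and 208 bp at Ciita, beside 206 bp over the whole list. Endothelial peaks averaged 222 bp, 215 bp and 189 bp, beside 210 bp. Peaks of exactly 151 bp were 4 of 42 Kupffer peaks at H2, 7 of 17 at Cd74 and 6 of 30 at Ciita, beside 26.0% of the list, and 2 of 14, 3 of 11 and 4 of 8 endothelial peaks, beside 34.5%. The part of the merging of libraries in these widths was not tested.

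**Figure D5:**
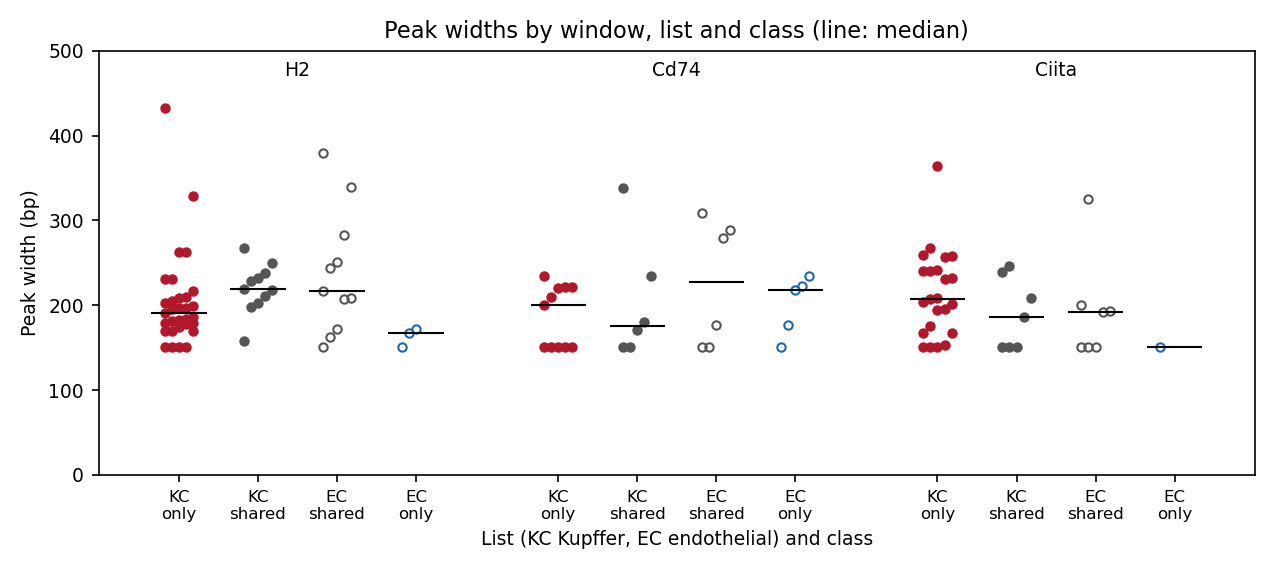
Width in bp of every peak by window, list (KC, Kupffer; EC, endothelial) and class, with the median as a line. The widest peak is the Kupffer-only peak of 433 bp at H2, and the 3 endothelial-only peaks at H2 lie between 151 and 172 bp.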

How the data were processed

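The deposited files are 2 peak lists, 1 per cell type, with 3 columns (chromosome, start, end). The authors deposited positions in bp, with no score or count per peak. Per the submitters' processing notes, Bowtie, HOMER and the build mm9 are named without versions; for the threshold, fragment selection, transposase offsets and pooling of libraries, the settings were not given in the sources used here. The read depth of either list is unknown, and the number of peaks can move with it. Overlaps, from NumPy 2.4.6 (Python 3.11.15), were tested on simulated data and checked against bedtools 2.31.1, which gave identical counts of shared peaks. Intervals are exact Clopper-Pearson 95% intervals from SciPy 1.17.1. Positions are on mm9, counted from 1. The cell type labels were not checked against marker genes, because no peak was assigned to a gene. The genes, windows and lists were chosen with earlier results of these data known. By the rule for naming, the text gives the widest peak of each kind, the longest runs, the longest stretch without peaks and the nearest restricted pair of each window, and sums up the others; some shared sites and runs beyond it were chosen after their values were seen.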

Additional observations from a re-analysis of the deposited data

How the results depend on the processing

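Of 135 alternative values, 123 stayed within set limits, and 12 moved further. The limits were 1.5 times the count or ratio, the binomial interval of the share and, for the median set against the mean width, the standard deviation of the widths. Overlap of at least 50% of both peaks, counting peaks within 500 bp as shared, joining peaks within 500 bp and assigning peaks by any overlap moved none of them. Assignment by any overlap gave the same peaks as the main setting. On few peaks the interval is a loose limit: with only peaks wider than the median, an endothelial-only share of 50% of 2 peaks at Ciita stayed within it. Without peaks up to the commonest width, 6 of 10 Kupffer peaks at Cd74 were Kupffer-only (60%), beside 66.2% of the whole Kupffer list in that setting. Endothelial-only peaks at Ciita numbered 0 (0% of 4), beside 43.0% of the whole endothelial list. The ratio of Kupffer to endothelial peaks at Ciita was then 6.00. With only peaks wider than the median of their list, Kupffer-only peaks numbered 14 at H2 and 6 at Cd74, and Ciita, left with 17 Kupffer and 2 endothelial peaks, had a ratio of 8.5 in peaks and 7.82 in covered length and 94.1% of Kupffer peaks Kupffer-only; in that setting 68.6% of the whole Kupffer list were Kupffer-only, beside 70.0% at H2 and 75% at Cd74. Both settings leave fewer peaks by construction. With windows narrowed by 10 kb a side no endothelial-only peak was left at Ciita (0 of 6 endothelial peaks, 0%). Widened by 20 kb a side, the Ciita window had 4 of 13 (30.8%), beside 41.7% of the whole endothelial list. Over all settings the ratio ran from 2.43 to 3.17 at H2, 2.85 to 8.5 at Ciita and 1.25 to 1.63 at Cd74, and that of the whole lists from 1.43 to 1.70. The lowest value at Cd74, 1.25, stood beside the highest of the whole lists, 1.70, without peaks up to the commonest width. No paired analysis was possible because neither list carries a value for any single library, and leaving out replicates was not run on that account. Unknown depth limits every statement on a missing peak.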
